A study of Mus musculus with 6 samples.

Results

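The genes described here are 60 cell cycle and DNA replication genes from the machinery that copies and segregates chromosomes. They were chosen by name, with earlier results of these data known. Of the 60 genes, 17 had at least 1 summit in the authors' list of RNA acetylation peaks, which names 1485 genes in all. The other 43 were not listed. The members were divided by role into 26 replication genes, 15 mitotic genes, 16 genes of cyclins, cyclin-dependent kinases (CDKs) and the enzymes that act on CDKs, and 3 genes of G1/S and checkpoint control.

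A dividing cell licenses its replication origins in G1, when the MCM helicase is loaded, and fires them in S phase, when the clamp, polymerases and nucleotide-supplying enzymes act. It then separates its chromosomes on the mitotic spindle. Cyclins bind and activate CDKs at each of these steps, and the anaphase-promoting complex ends mitosis by marking cyclin B and securin for degradation. In blood progenitor lines such as the one used here, entry into the cycle depends on a cytokine in the medium.

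The measurement was acRIP-seq, the sequencing of RNA fragments pulled down by an antibody to N4-acetylcytidine (ac4C), a modified cytidine that the acetyltransferase Nat10 writes on RNA. The study took poly(A) RNA from 32D cells, a wild-type mouse bone marrow line grown with 10 ng/mL of interleukin 3, and made 2 libraries each with the ac4C antibody, with control IgG and from input RNA. All the cells had the same genotype and medium, and the labels name neither a synchronised culture nor separate cultures for the libraries of a group. Every value below comes from 1 list, whose peak names read as a single call on both ac4C libraries together. Error between replicates therefore could not be estimated, and IgG and input values were not analysed here.

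Each summit has a fold enrichment, the ratio that the authors' peak caller gave. All folds in the list were whole multiples of 0.475, which gives the pileup, the number of fragments over the summit, above a constant background of 1.11 fragments. The pileups at members' summits ran from 7 to 72 fragments, with a median of 40, against 5 to 548 with a median of 23 over all 1876 summits. Each fold below is followed by its exact 95% Poisson interval, which covers counting error of the pileup only. The fold has no term for the abundance of the transcript, so a difference in fold between 2 genes cannot be told apart from a difference in their mRNA levels, and being listed is no proof of ac4C at that site. An unlisted gene may lack expression or acetylation, or may have been removed by a filter.

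The label of the cells was checked first against marker genes. Of 13 myeloid and IL-3 receptor markers, 4 had a summit, namely Spi1 (fold 53.6), Fcer1g (44.6), Csf2rb2 (10.4) and Csf2rb (9.02), and none of 5 B cell, 5 T cell, 5 erythroid or 5 non-hematopoietic markers was listed. With 6.70% of all protein-coding genes listed, a count of 0 of 5 is uninformative (exact interval up to 52.2%), so these lists do not separate the cell types.

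Among the members, 28.3% had a listed summit (17 of 60; exact 95% interval 17.5% to 41.4%), against the same 6.70% of the 21896 protein-coding genes in the gene table, a background that includes genes these cells may not express. Another 159 genes of the same pathways gave a closer comparison, and 34 of them, or 21.4% (15.3% to 28.6%), were listed. The intervals of the 60 members and of the 159 other pathway genes overlapped. With only summits at or above the median fold of 11.4, 13 members remained, or 21.7%, against 3.64% of protein-coding genes. By class, mitotic members were listed most often, at 40.0% (6 of 15; 16.3% to 67.7%). The cyclin-CDK members followed at 25.0% (4 of 16; 7.27% to 52.4%) and the replication members at 23.1% (6 of 26; 8.97% to 43.6%). These intervals all overlapped, so the order of the classes was not resolved.

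**Figure D1:**
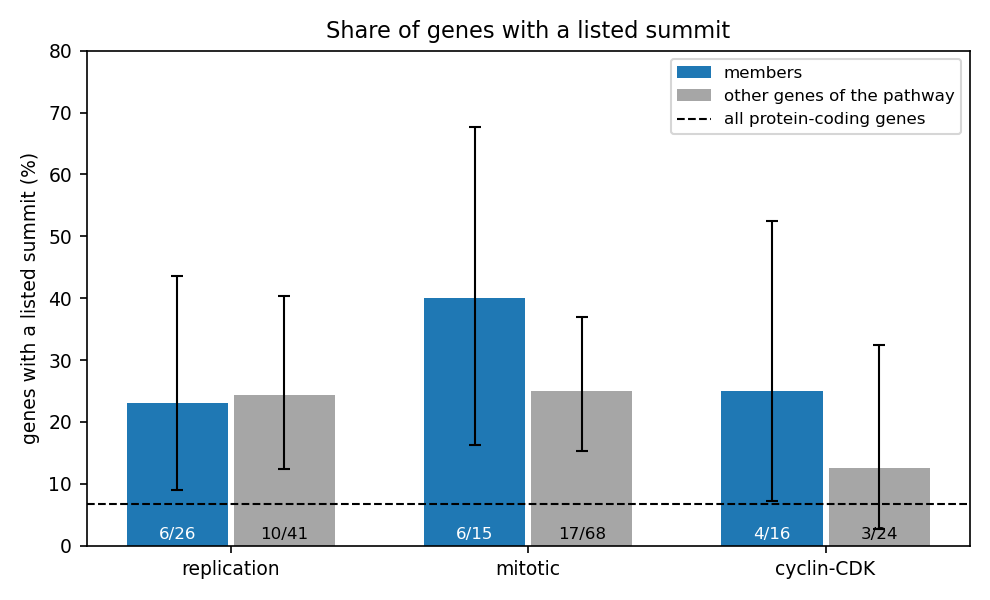
Percentage of genes with at least 1 listed summit for the members (blue) and the other genes of the pathway (grey) in each class, with exact 95% intervals as error bars and listed over total genes written in each bar; the dashed line marks all protein-coding genes at 6.70%. Mitotic members have the highest bar at 40.0%, and the intervals of the classes overlap.

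Replication members with a listed summit came from 4 of the 5 roles into which the class was divided. Of the 11 licensing and helicase genes, 3 had a summit, beside 23.1% of the class and 6.70% of all protein-coding genes. All 3 encode subunits of the MCM2-7 helicase, which unwinds DNA at the fork. So few genes cannot set these subunits apart from the others of the role. Mcm7 had a coding summit at nt 1640 of ENSMUST00000000505, with a fold of 26.6 (20.1 to 34.5). Mcm6 had a 3' untranslated summit at nt 4259 of ENSMUST00000190495, with a fold of 15.2 (10.5 to 21.4). Mcm4 had a 3' untranslated summit at nt 2915 of ENSMUST00000023353, with a fold of 5.22 (2.75 to 9.20). Mcm4 thus lay below both other subunits beyond counting error, while the intervals of Mcm7 and Mcm6 overlapped. The other subunits, Mcm2, Mcm3 and Mcm5, had no listed summit. Neither did Orc1 of the origin recognition complex, the loading factors Cdc6 and Cdt1, the Cdt1 inhibitor Gmnn, or Cdc45, which joins the MCM ring to form the active helicase.

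In the other replication roles, 1 of 2 single-strand binding genes, 1 of 4 polymerase and primase genes and 1 of 3 nucleotide supply genes were listed. Rpa2, a subunit of the protein that coats single-stranded DNA, had a 3' untranslated summit at nt 1180 of ENSMUST00000102561, with a fold of 17.1 (12.0 to 23.6). Prim1, the catalytic subunit of primase, which starts each new strand with an RNA primer, had one at nt 1448 of ENSMUST00000026461, with a fold of 6.17 (3.42 to 10.4). Rrm2, the regulatory subunit of ribonucleotide reductase, which makes deoxyribonucleotides, had one at nt 2011 of ENSMUST00000020980, with a fold of 20.9 (15.2 to 28.0). Among the members, their partners in the same complexes, Rpa1, Pola1 and Rrm1, were not listed. Rpa3, a partner of Rpa2 outside the members, was listed and is described below. The sliding clamp gene Pcna and its loader genes Rfc1 to Rfc5 were also not listed (0 of 6, in a class of which 23.1% were listed), nor were the polymerase genes Pold1 and Pole or the thymidylate synthase gene Tyms. A count of 0 of 6 is too small to set the clamp and loader genes apart from the class.

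The replication folds ran from 5.22 to 26.6, with the intervals of Prim1 and Mcm4 below those of the other listed genes of the class. Prim1 and Mcm4 had intervals that ended at 10.4 and 9.20, below the median of 12.3 for the highest fold of each of the 1485 genes. The intervals of Mcm7 and Rrm2 lay wholly above that median, and those of Rpa2 and Mcm6 included it. Of the 6, Mcm7 alone stood in the highest quartile of genes, which began at a fold of 21.4.

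Mitotic members had the highest median fold of the 3 classes, 31.8 over 6 genes (lowest 4.27, highest 34.7). Cdc20, Mki67 and Top2a each had a pileup of 72 fragments and so the same fold of 34.7 (27.2 to 43.5), in 3 different regions. Cdc20, the activator of the anaphase-promoting complex that the spindle checkpoint holds back, had its summit in the 5' untranslated region at nt 198 of ENSMUST00000006565. Top2a, the topoisomerase that untangles sister chromatids, had its summit in coding sequence at nt 756 of ENSMUST00000068031. Mki67, the gene of the chromosome surface protein Ki-67, had its highest summit in the 3' untranslated region at nt 9804 of ENSMUST00000033310.

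Kif11 and Plk1 came next in the class. Kif11, the motor that pushes spindle poles apart, had a 3' untranslated summit at nt 4045 of ENSMUST00000012587, with a fold of 29.0 (22.2 to 37.1). Plk1, a kinase that acts from mitotic entry to cytokinesis, had one at nt 2098 of ENSMUST00000033154, with a fold of 26.1 (19.7 to 33.9). The intervals of these 5 genes overlapped, so their order was not resolved. Ttk, the spindle checkpoint kinase also called Mps1, stood apart with a coding summit at nt 99 of ENSMUST00000185913 and a fold of 4.27 (2.11 to 7.96), below all 5.

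Of the other spindle checkpoint members, Bub1, Bub1b and Mad2l1 had no listed summit. The Aurora kinase genes Aurka and Aurkb were not listed, and neither was Birc5, the survivin gene, whose protein works with Aurora B in the chromosomal passenger complex. The motor genes Kif23 and Cenpe and the kinetochore gene Cenpf were not listed either. In all, 9 of the 15 mitotic members were unlisted. Beside 40.0% of the class and 6.70% of all protein-coding genes listed, these groups are too small to be set apart.

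Mki67 was the member with the most listed summits. Besides the summit at nt 9804, it had coding summits at nt 3644, with a fold of 18.0 (12.8 to 24.7), and at nt 1931, with a fold of 3.80 (1.81 to 7.32). The 3 intervals did not overlap, so the pull-down height along this transcript differed beyond counting error, with the lowest value at the summit nearest the 5' end. These summits lie on 1 transcript, so the abundance of that transcript is shared by all 3, whereas local coverage of the RNA was not measured.

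The authors' peak numbers ran in order of transcript and position for every entry, so any number between 2 listed peaks of 1 transcript belongs to a peak on it. On this basis the Mki67 transcript carried at least 9 numbered peaks over the 7873 nt between its first and last listed summit, and 3 of them were listed. Of the 101 transcripts with 2 or more listed peaks, 2 spanned 9 or more numbers, Mki67 among them, and the median span was 2.0. The peak at nt 9804 had at least 4 summits by its letter. For Plk1 the letter gave at least 3 summits in the listed peak, and for Top2a and Mcm6 at least 2.

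**Figure D2:**
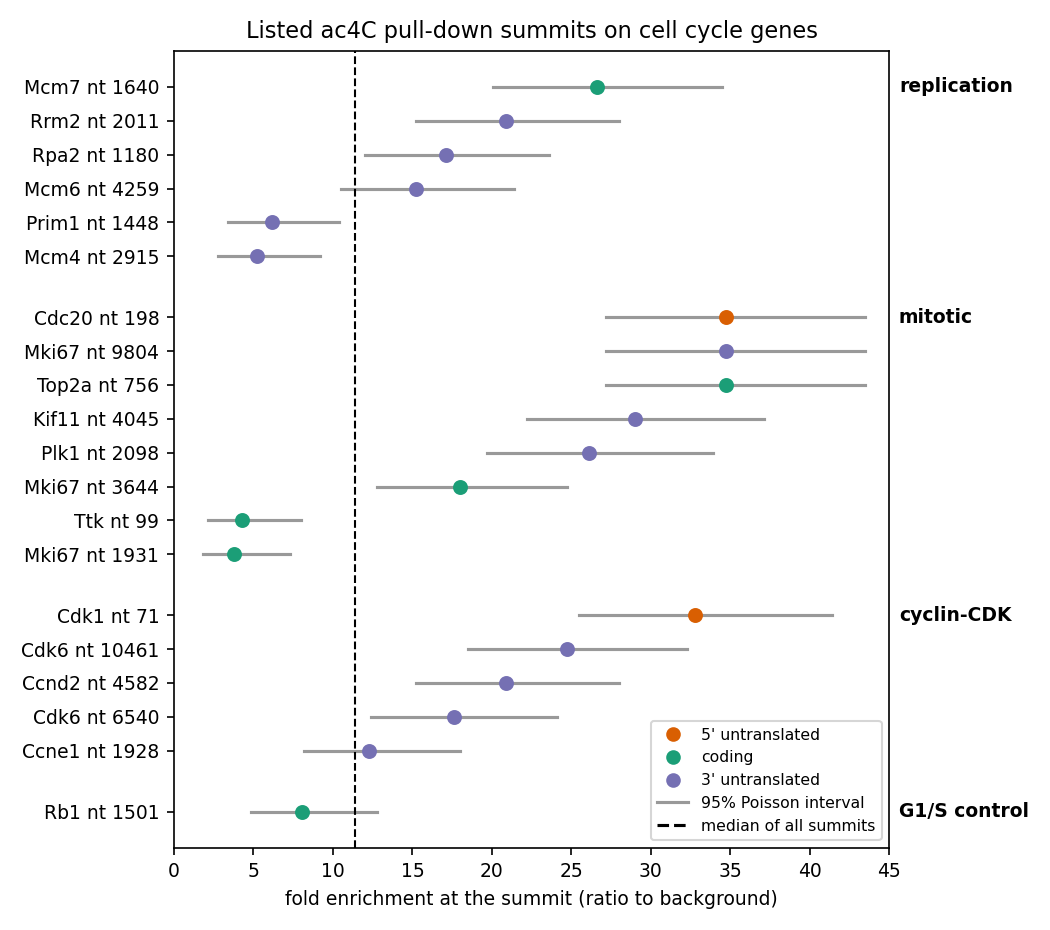
Fold enrichment (ratio to background) of each of the 20 listed summits on the members, grouped by class and named by gene and position in nt on its transcript; colour gives the region, bars the 95% Poisson interval of the pileup, and the dashed line the median of all summits, 11.4. Cdc20, Mki67 and Top2a share the highest fold, 34.7, and Mki67 and Ttk hold the lowest, 3.80 and 4.27.

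Cyclin-CDK members with a summit were 2 kinases and 2 cyclins. Cdk1, the kinase that drives mitosis, had a 5' untranslated summit at nt 71 of ENSMUST00000020099, with a fold of 32.8 (25.5 to 41.4). Cdk6, a G1 kinase prominent in blood cells, had 3' untranslated summits at nt 10461 of ENSMUST00000165117, with a fold of 24.7 (18.5 to 32.3), and at nt 6540, with a fold of 17.6 (12.4 to 24.1). The intervals of the 2 Cdk6 summits overlapped. They lay 3921 nt apart, and at least 5 numbered peaks fell on this transcript from the one to the other. The kinase genes Cdk2 and Cdk4 were not listed.

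Of the D-type cyclins, which pair with Cdk4 and Cdk6 in G1, only Ccnd2 was listed. Its 3' untranslated summit at nt 4582 of ENSMUST00000000188 had a fold of 20.9 (15.2 to 28.0). Ccne1, the cyclin that activates Cdk2 at the start of S phase, had a 3' untranslated summit at nt 1928 of ENSMUST00000108023, with a fold of 12.3 (8.15 to 18.0). Its interval lay wholly below those of Cdk1 and of the taller Cdk6 summit and overlapped those of the lower Cdk6 summit and of Ccnd2. Ccnd1, Ccnd3, Ccne2, the S-phase and mitotic cyclin gene Ccna2 and the B-type cyclin genes Ccnb1 and Ccnb2 had no listed summit. Nor had the enzymes that set CDK phosphorylation, with Cdc25a, Cdc25b, Cdc25c and Wee1 giving 0 of 4. Beside 25.0% of the class and 6.70% of all protein-coding genes, so small a count is uninformative.

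Of the genes of G1/S and checkpoint control, Rb1 alone was listed. Rb1 encodes the retinoblastoma protein, which holds back E2F transcription factors, and had a coding summit at nt 1501 of ENSMUST00000022701 with a fold of 8.07 (4.82 to 12.8). E2f1 and the checkpoint kinase gene Chek1 were not listed.

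Across the classes, the highest fold per gene had a median of 20.9 for the 17 listed members, with an order-statistic 95% interval of 12.3 to 29.0, against 12.3 for all 1485 genes. The lower bound of that interval thus reached the median of all genes. Of the 17, 12 stood above that median and 8 in the highest quartile, which holds 25.1% of all genes. These 8 comprised 5 of 6 mitotic genes, 2 of 4 cyclin-CDK genes and 1 of 6 replication genes. The 34 listed pathway genes outside the members had a median of 10.9 (7.12 to 16.1). This interval overlapped that of the members, so a difference between the 2 medians was not resolved. Of these 34, 15 stood above the median of all genes and 7 in the highest quartile. Class medians of the members were 31.8 for mitotic, 22.8 for cyclin-CDK and 16.1 for replication genes. With coding summits alone the order of mitotic and replication genes turned, with a median of 18.0 for 3 mitotic genes and a single replication value, 26.6 on Mcm7. The ranges of the classes overlapped, at 4.27 to 34.7 for mitotic, 12.3 to 32.8 for cyclin-CDK and 5.22 to 26.6 for replication genes. No member approached the top of the list, since 160 genes had a higher fold than Cdc20, Mki67 and Top2a.

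**Figure D3:**
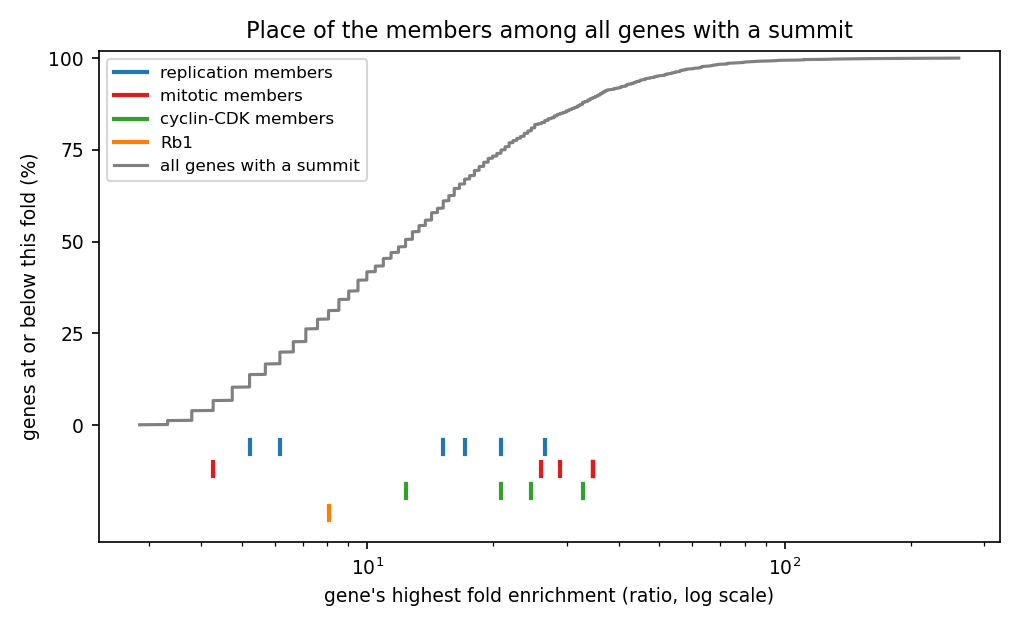
Cumulative percentage of all 1485 genes with a summit (grey line) against the highest fold enrichment of each gene (ratio, log scale), with a tick for each listed member below it by class; the red tick at 34.7 stands for Cdc20, Mki67 and Top2a. Most mitotic ticks lie in the highest quartile, above 21.4, and the replication ticks spread from 5.22 to 26.6.

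Counting error set how finely the members could be ordered. The intervals of Cdc20, Mki67, Top2a and Cdk1 overlapped those of every member down to Rrm2 and Ccnd2, and the first lower gene without overlap was Rpa2. At the other end, the intervals of Rb1, Prim1, Mcm4 and Ttk overlapped one another. The lowest −log10 q of all member summits in the authors' deposited table was 3.52, or a q-value of 0.000300, for Mki67 at nt 1931. The deposited p-values follow from the pileup and the constant background, so this value restates a low pileup of 7 fragments. Like the fold, it has no term for the abundance of the transcript.

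Members' summits lay mostly in 3' untranslated regions, which held 12 of 20, or 60.0% (36.1% to 80.9%), against 843 of all 1876 summits, or 44.9%. Coding sequence held 6 of 20, or 30.0% (11.9% to 54.3%), against 48.0% of all summits, and the 5' untranslated region held 2 of 20, or 10.0% (1.23% to 31.7%), against 7.09%. Each interval included the share of the whole list. By class, the 3' untranslated region held 5 of 6 replication summits, 4 of 5 cyclin-CDK summits and 3 of 8 mitotic summits. Coding sequence held 4 of 8 mitotic summits, 2 of them on Mki67, 1 of 6 replication summits and no cyclin-CDK summit (0 of 5; exact interval up to 52.2%). With so few summits the classes were not resolved by region.

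**Figure D4:**
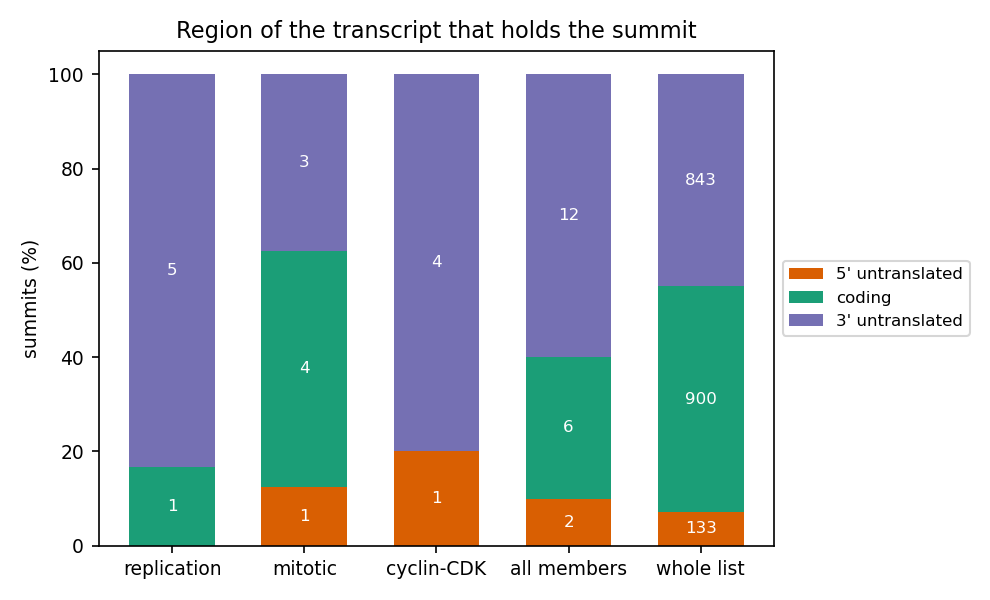
Percentage of listed summits in the 5' untranslated, coding and 3' untranslated parts of the transcript, for each class, for all members and for the whole list, with the number of summits written in each block. Replication and cyclin-CDK summits lie mostly in the 3' untranslated region (5 of 6 and 4 of 5), and mitotic summits are divided among all 3 regions.

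Both 5' untranslated summits of the members were tall, at 34.7 on Cdc20 and 32.8 on Cdk1, against a median of 13.8 for all 133 such summits. The 12 in 3' untranslated regions had a median fold of 19.2 (lowest 5.22, highest 34.7), against 12.3 for all 843. The 6 in coding sequence had a median of 13.1 (lowest 3.80, highest 34.7), against 10.4 for all 900. Cdk1, Ttk and Cdc20 had summits within 200 nt of the transcript start, a distance chosen after their positions were seen. These made up 3 of 20 members' summits, or 15.0%, against 218 of 1876, or 11.6%, in the whole list.

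The other genes of the pathway were set beside the members class by class. Mitotic genes outside the members were listed for 17 of 68, or 25.0% (15.3% to 37.0%), and their median fold was 7.59, against 31.8 for the mitotic members. The highest were Ube2c, the ubiquitin-conjugating enzyme of the anaphase-promoting complex, at 54.6 (45.1 to 65.5), Cdca8, the passenger complex subunit borealin, at 53.6 (44.2 to 64.4), and Cenpa, the centromeric histone, at 23.7 (17.7 to 31.2). Both Ube2c and Cdca8 had higher folds than any member, with intervals that lay above the interval of Cdc20. Of the 17, 4 stood in the highest quartile of genes, which holds 25.1% of all genes, and the difference from the 5 of 6 mitotic members was not tested.

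Replication genes outside the members were listed for 10 of 41, or 24.4% (12.4% to 40.3%), near the 23.1% of replication members. Their median fold was 13.1, against 16.1 for the replication members. Rpa3, the smallest subunit of the single-strand binding protein, had 23.3 (17.3 to 30.7), Wdhd1, which ties the helicase to polymerase alpha, had 19.9 (14.4 to 26.9), and the topoisomerase gene Top1 had 16.1 (11.3 to 22.5). Rpa2 and Rpa3 thus both had a 3' untranslated summit, with overlapping intervals, while Rpa1 had none listed.

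Of 24 further genes of cyclins, CDKs and their regulators, 3 were listed, or 12.5% (2.66% to 32.4%). They were Cdc37, a cochaperone for kinases such as Cdk4, at 36.1 (28.5 to 45.1), the CDK inhibitor gene Cdkn1a at 19.5 (14.0 to 26.3) and the ubiquitin-conjugating enzyme gene Cdc34 at 8.54 (5.18 to 13.4). Of 26 further control genes, 4 were listed, or 15.4% (4.36% to 34.9%), led by the transcription factor gene E2f4 at 21.8 (16.1 to 29.1), the checkpoint adaptor gene Clspn at 18.0 (12.8 to 24.7) and the Rb1 relative Rbl2 at 8.54 (5.18 to 13.4). Over the 34 listed genes outside the members, the strongest summit lay in coding sequence for 22, or 64.7% (46.5% to 80.3%), against 46.0% of all 1485 genes, and in the 3' untranslated region for 11, or 32.4% (17.4% to 50.5%), against 46.6%. Counted in the same way, coding sequence held the strongest summit of 4 of the 17 listed members, or 23.5% (6.81% to 49.9%), an interval that overlapped that of the other pathway genes. Several of these genes had summits on more than 1 isoform that may be 1 site, whereas each listed member had its summits on 1 transcript.

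Some members share their locus with other genes in the RefSeq table, which gives no strand. Mcm7 overlaps Ap4m1 and hosts the microRNA genes Mir25, Mir93 and Mir106b, Cdc20 overlaps Elovl1, and Rb1 overlaps Lpar6. Kif11 overlaps the pseudogenes Gm46649 and Gm8663, Ccnd2 and Cdk6 overlap long noncoding RNA genes, and Rb1 and Top2a also overlap small RNA genes. None of these neighbours was listed. Every listed summit was annotated to an untranslated or coding part of a transcript. Noncoding neighbours could therefore hardly appear, and their absence is uninformative. No source used here states whether reads were counted by strand, so the part of these neighbours in the members' summits was not tested.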

How the data were processed

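The authors' deposited table holds 1876 summits on 1714 transcripts of 1485 genes. Its fold enrichment is a ratio and its significance is the −log10 of a p-value and of a q-value, per the file headers. The submitters' processing notes name cutadapt, Bowtie2, MACS2 and GRCm39, without parameters. The names read as 1 call on merged ac4C libraries, so depth per library is unknown and the planned tests between libraries were not run. No source used here gives the filter behind the list: peak numbers reach 33651, and 1824 were listed.

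From these values, pileups were computed as fold over the step of 0.475, minus 1; the resulting Poisson p-values differed from the deposited p-values by at most 0.00047% on the −log10 scale. Poisson, Clopper-Pearson and order-statistic intervals (95%) used scipy 1.17.1 and Python 3.11.15. The Poisson and order-statistic intervals were first tested on simulated data. Poisson intervals cover counting error of the pileup only. Clopper-Pearson and order-statistic intervals treat genes or summits as independent draws and hold no counting error of the pileup. The members were not drawn at random. No test was run over the members. Gene names were matched to RefSeq (GRCm38.p6; 1475 of 1485 symbols, and all 60 members), whose coordinates were not used for positions. Members, classes and pathway lists were chosen with earlier results of these data known. All listed members are named with every summit, and the 3 highest folds per class of the other pathway genes. Alternatives changed the threshold, the region, the class of some genes and the summit standing for a gene.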

Additional observations from a re-analysis of the deposited data

How the results depend on the processing

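Of 54 values recomputed under the alternative settings, 53 stayed within the 95% interval of the reported value (or, for class medians of fewer than 6 genes, within the range of the class). The exception was the share of members listed with coding summits alone, 8.33% (5 of 60), lower by construction because fewer summits count. The alternative settings reuse the same summits, and the 95% interval of a median over 6 genes is also their full range. Most values could thus hardly leave their interval, and the count of 53 is no measure of robustness. Stricter thresholds gave 21.7% (folds at or above the median) and 23.3% (−log10 q at or above the lower quartile). With Top2a and Mki67 counted as replication genes, the shares came closer, at 30.8% for mitotic and 28.6% for replication genes, and the mitotic median fold was 27.5. With cyclins and CDKs alone the cyclin-CDK share was 33.3%. With coding summits alone, the median fold was 18.0 for 3 mitotic members and 26.6 for 1 replication member, which turned the order of these classes, and no cyclin-CDK member had a coding summit, so that median could not be computed. No paired analysis was possible because every value is of the merged libraries, and leaving out a replicate gave no value for the same reason. Pileups of 7 to 72 fragments limit the order of the members.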
